A study of Homo sapiens with 9 samples.

Results

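Ago-HITS-CLIP peaks were examined in 34 genes, of which 2 encode transcription factors. The rest act in glucose transport, glycolysis, the pentose phosphate pathway, pyruvate oxidation or lactate handling. A peak belonged to a gene when its midpoint lay on the same strand within the hg19 gene body, and the genes were taken from a list by their function. The list was drawn up with earlier results of these data known, so its shares are descriptions and not an unselected comparison. All 34 genes were found among 20163 protein-coding genes of the nuclear chromosomes. The miR-342-3p mimic had 37 of its 3450 peaks in them, and the miR-342-5p mimic had 41 of its 5010. The cells were MDA-MB-231HM (231HM), a highly metastatic human triple-negative breast cancer line, labelled as wild type. Each culture received 20 nM of 1 of 3 mimics, which were miR-342-3p, miR-342-5p and a negative control, with 3 libraries of each, and Ago2 with its crosslinked RNA was precipitated after 48 h. A mimic is a synthetic RNA that is loaded into Argonaute, so that peaks mark where Argonaute carrying an excess of one miRNA held RNA. Each peak was called over the negative control mimic on merged libraries, both lists share those controls, and no value per library can be given. The peak score, which the authors describe as reads above background, is 5 or higher throughout, and because the scaling of the libraries is not stated, scores are compared between mimics by their place within each list.

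Glycolysis converts glucose to pyruvate in the cytosol, and many tumour cells reduce much of that pyruvate to lactate even when oxygen is present. Glucose enters through SLC2A transporters and is trapped by hexokinase, and the step of phosphofructokinase is tuned by a metabolite made by PFKFB enzymes. Pyruvate leaves the pathway through lactate dehydrogenase or through pyruvate dehydrogenase, which the PDK kinases switch off, and lactate is exported by SLC16A transporters. HIF1A and MYC are transcription factors that raise the expression of many of these genes. A miRNA guides Argonaute mainly by pairing of its seed, bases 2 to 8, and sites in 3′UTRs are known to repress more than sites in coding sequence.

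The mature miRNAs are shown from the RefSeq tables (human assembly GRCh38.p14), with the seed in capitals.
miR-342-3p: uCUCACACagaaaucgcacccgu
miR-342-5p: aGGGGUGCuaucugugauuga
On the strand of each peak, target sites were sought as GUGUGAGA (8mer), GUGUGAG (7mer-m8) and UGUGAGA (7mer-A1) for miR-342-3p, and as GCACCCCA, GCACCCC and CACCCCA for miR-342-5p. The shorter forms lie inside the 8mer, and each site was counted once as its longest form. The 6mer common to both 7mers, UGUGAG or CACCCC, was counted apart and is not called a site here.

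The sites that lay within 50 nt of a peak summit are shown because they mark where the seed of a mimic could pair in a bound mRNA (GRCh37, 5′ to 3′ on the strand of the gene, site in capitals). The 3 such miR-342-3p sites of the 34 genes all had their centre in coding sequence, and that of SLC2A1 ran over the stop codon into the 3′UTR.
SLC2A1, chr1:43392700-43392729, minus strand: gcugauucccaaGUGUGAGucgccccagau
PFKL, chr21:45733875-45733904, plus strand: gagaacuucauGUGUGAGAggcugggugag
HIF1A, chr14:62187256-62187285, plus strand: cagcuauuugcGUGUGAGgaaacuucugga
The miR-342-5p mimic had 8 peaks with a site, in 7 genes, and the 2 of SLC16A3 lay outside basic GENCODE transcripts.
GAPDH, chr12:6646492-6646521, plus strand: ccaacugcuuaGCACCCCuggccaagguca
ALDOA, chr16:30080886-30080915, plus strand: cccaacaugguCACCCCAggccaugcuugc
GPI, chr19:34887521-34887550, plus strand: guccagacccaGCACCCCAuacggaagggu
PFKP, chr10:3151589-3151618, plus strand: gccaccccggaCACCCCAgcuugcgucgug
HK1, chr10:71119754-71119783, plus strand: gagguuuaugaCACCCCAgagaacaucgug
SLC2A3, chr12:8073853-8073882, minus strand: gcacuccaugaGCACCCCAaggcugcgguu
SLC16A3, chr17:80201864-80201893, plus strand: uaacacccacuGCACCCCugccccgcggca
SLC16A3, chr17:80200214-80200243, plus strand: ggacaugcgcuCACCCCAggcggcuggagu
The distance from the centre of the site to the summit ranged from 1.5 to 12 nt in the miR-342-3p peaks, and for miR-342-5p it ranged from 3 to 10.5 nt, within windows that reached 50 nt to each side.

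Peaks of at least 1 mimic were found in 24 of the 34 genes (70.6%, 95% Wilson interval 53.8 to 83.2), against 19.5% of all protein-coding genes. The miR-342-3p mimic had a peak in 16 genes (47.1%, 31.5 to 63.3), where the share of all protein-coding genes was 11.8%, and the miR-342-5p mimic also in 16 genes, where that share was likewise 11.8%. The intervals cover counting error only. Both mimics had peaks in 8 genes (23.5%), against 4.06% of all genes. These 8 were the glucose transporter gene SLC2A1, the lactate exporter gene SLC16A3, HK1, GPI, PFKP, ENO2, PKM and TKT. The miR-342-3p mimic alone had peaks in HK2, PFKL, PFKFB4, ALDOC, TPI1, PGK1, LDHB and HIF1A. The miR-342-5p mimic alone had peaks in SLC2A3, PFKM, PFKFB3, ALDOA, GAPDH, PGAM1, ENO1 and PGD. No peak was listed in SLC16A1, PFKFB2, LDHA, PDHA1, PDHB, PDK1, PDK2, PDK3, TALDO1 or MYC. The lists hold no mRNA levels, so a gene without binding cannot be told apart from a gene with little mRNA. For the same reason, no comparison with all genes, whole lists or all transcripts was matched for mRNA level.

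Peaks were present in all 8 genes of the steps from hexokinase to aldolase and in all 7 genes from triosephosphate isomerase to pyruvate kinase, and these 15 genes held 50 of the 78 peaks. Peaks were present in 0 of the 5 genes of pyruvate dehydrogenase and its kinases (interval 0 to 43.4%), which does not set them apart from the 19.5% of all genes. The miR-342-3p peaks in the 34 genes had a median score of 50, while that of their list was 24. The miR-342-5p peaks had a median score of 68, while that of their list was 19. Scores above 100 were reached by 14 of 37 miR-342-3p peaks (37.8%, 24.1 to 53.9) against 10.8% of the list, and by 15 of 41 miR-342-5p peaks (36.6%, 23.6 to 51.9) against 7.21% of the list. Neighbouring peaks of a gene are not independent. The 37 and 41 peaks formed 30 and 33 groups when those at most 10 nt apart in the genome were joined. Peaks of neighbouring exons stayed apart by this rule, so the groups can outnumber the separate places on the mRNA. The 5 GAPDH peaks, for example, formed 3 groups but were at most 10 nt apart along the spliced mRNA. Taking the highest peak of each gene, the median was 113.5 over the 16 members with a miR-342-3p peak and 29 over all protein-coding genes with one. The corresponding medians for miR-342-5p were 92 and 25.

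**Figure D1:**
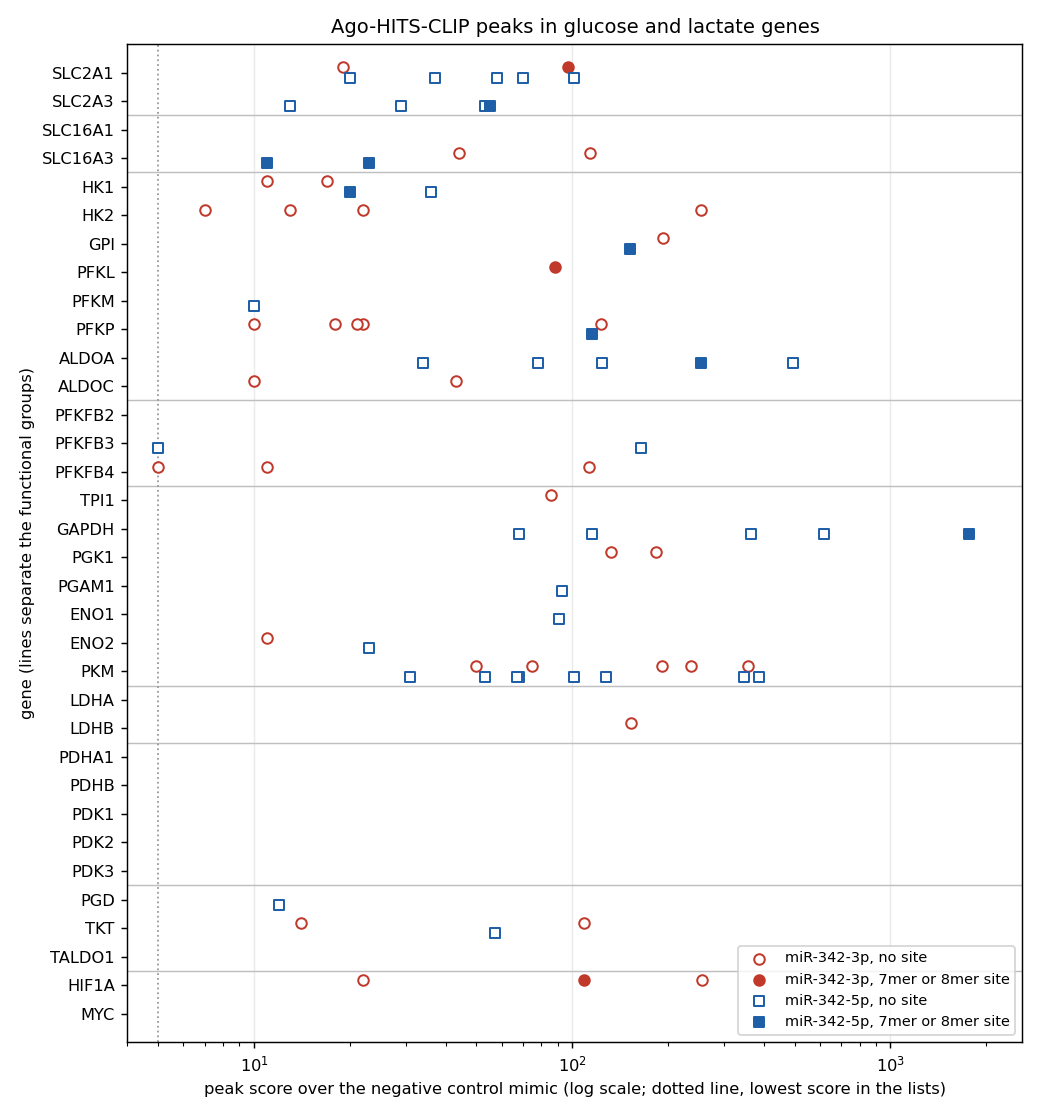
Score of each peak (log axis) in the 34 genes, in functional groups, with circles for the miR-342-3p mimic, squares for the miR-342-5p mimic and filled symbols where a 7mer or 8mer site of that mimic lay within 50 nt of the summit. GAPDH held the highest score, 1765 for miR-342-5p, the highest miR-342-3p score was 356 in PKM, and 10 genes had no peak.

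At the entry of the pathway, SLC2A1, which encodes the GLUT1 glucose transporter, was bound with both mimics and SLC2A3, which encodes GLUT3, with miR-342-5p alone. The SLC2A1 peak of miR-342-3p at chr1:43392700-43392766 had a score of 97, a level reached by 11.4% of its list. It lay in the last exon, exon 10, and its summit was at coding nucleotide 1466 of 1479, next to the stop codon. The seed site printed above was 11 nt from this summit. A second miR-342-3p peak, with a score of 19, lay 473 nt after the stop codon in the 3′UTR and had no site. The miR-342-5p mimic had 5 peaks along the coding sequence of SLC2A1, with scores of 101 in exon 2, 70 in exon 4, 58 in exon 10, 37 in exon 5 and 20 in exon 8. None of these 5 had a miR-342-5p site. The peak in exon 10, chr1:43392689-43392796, overlapped the miR-342-3p peak and held the miR-342-3p site. In the SLC2A3 transcript, the highest peak, chr12:8073844-8073955, had a score of 55 and lay 131 nt after the stop codon. It contained an 8mer and was, among the 34 genes, the only peak with a whole site in the 3′UTR of its own gene. The 3 other peaks of SLC2A3 had scores of 53 at the start of the coding sequence, 29 in the 5′UTR and 13 in the 3′UTR.

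The transporters that carry lactate across the plasma membrane differed in the lists. SLC16A3, which encodes the exporter MCT4, had miR-342-3p peaks with scores of 114 in exon 2 of 5, at chr17:80194047-80194107, and 44 in exon 4. Neither had a site on the strand of the gene. Its 2 miR-342-5p peaks, with scores of 23 and 11, both had a site but lay in a part of the gene body that no basic GENCODE transcript covered, so their RNA cannot be assigned to the MCT4 mRNA. SLC16A1, which encodes MCT1, had no peak of either mimic.

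Among the early enzymes, HK2, the hexokinase most often raised in tumours, and GPI, the isomerase that follows it, had the highest miR-342-3p scores. The HK2 peak at chr2:75113617-75113751 had a score of 254, which 3.10% of the list reached, and lay in exon 15 of 18. The 3 other HK2 peaks lay beside it in exons 14 and 15 and had scores of 22, 13 and 7. The GPI peak of miR-342-3p, chr19:34857688-34857756, had a score of 193 in exon 3. The miR-342-5p peak of GPI was elsewhere, in exon 14, with a score of 152 and an 8mer 7.5 nt from the summit. HK1, the widely expressed hexokinase, had low scores with both mimics, at 17 and 11 with the miR-342-3p mimic, and at 36 and 20 with miR-342-5p.

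The 3 genes of phosphofructokinase, which commits glucose to glycolysis, differed in their listed peaks. PFKL, the liver-type subunit, had a single peak, for miR-342-3p, with a score of 88 in exon 7 at chr21:45733820-45733904. Its 8mer lay 1.5 nt from the summit and pairing continued over miRNA bases 1 to 9. PFKP, the platelet-type subunit, had 5 miR-342-3p peaks with scores of 123, 22, 21, 18 and 10, without a site. Its miR-342-5p peak, chr10:3151547-3151632, had a score of 115 and a 7mer-A1 3 nt from the summit in exon 10. PFKM, the muscle-type subunit, had a single miR-342-5p peak with a score of 10.

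Aldolase splits the hexose into trioses. ALDOA, its main form outside liver and brain, had 5 miR-342-5p peaks and none for miR-342-3p. The highest, chr16:30078555-30078687, had a score of 495 in exon 3, which 0.479% of the list reached, and had no site. The next, chr16:30080850-30080924, had a score of 254 and a 7mer-A1 5 nt from its summit in exon 8. The others had scores of 124, 78 and 34. ALDOC, the brain form, had miR-342-3p peaks alone, scoring 43 and 10. Peaks of a single mimic were the usual case, since 3930 protein-coding genes had a peak of either mimic and 819 of both. The PFKFB enzymes likewise had no gene with peaks of both mimics. PFKFB3, the form most associated with rapid glycolysis, had miR-342-5p peaks with scores of 164 and 5 in exon 14, while PFKFB4 had miR-342-3p peaks with scores of 113 in exon 2 and 11 and 5 in the 3′UTR. PFKFB2 had none.

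The later steps of glycolysis contained the strongest signal of the 34 genes. GAPDH, which oxidises glyceraldehyde 3-phosphate, had 5 miR-342-5p peaks and no miR-342-3p peak. The peak at chr12:6646465-6646652 had a score of 1765 and ranked 2 among the 5010 miR-342-5p peaks. Its summit was at coding nucleotide 465 of 1008 in exon 7, and the site 10 nt away was part of a run of 10 paired bases, miRNA bases 1 to 10. The second GAPDH peak, chr12:6646358-6646447, had a score of 618 and ranked 19. Its summit was at coding nucleotide 443 in exon 6, across an intron from the first, and along the spliced mRNA the same site was 32 nt from this summit. Only 82 of the 188 bases of the first peak and 25 of the 90 bases of the second were exonic, the rest being intron, and the lists do not show whether reads bridged the intron. The 3 other peaks had scores of 364, 115 and 68 in exons 8, 6 and 8, without a site. GAPDH has many processed pseudogenes, and along the spliced mRNA the 61 nt around the summits of both highest peaks had 24 near-copies each elsewhere in the genome, while those of the other 3 had 9, 10 and 11. None of these copies held a peak, and the part of reads from them was not tested.

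Pyruvate kinase, encoded by PKM, makes pyruvate and ATP in the last step of glycolysis. PKM had 13 peaks, more than any other of the 34 genes, of which 5 came from miR-342-3p and 8 from miR-342-5p, and 0 of the 13 had a site. The miR-342-3p peaks had scores of 356, 236, 192, 75 and 50 and lay in exons 6, 7 and 8 of 11. The highest, chr15:72501056-72501117, was the highest miR-342-3p peak of all 34 genes, and 1.86% of the list reached it. The miR-342-5p peaks had scores of 385, 346, 128, 101, 68, 67, 53 and 31. The highest, chr15:72502688-72502818, lay in exon 4, and a peak with a score of 67 lay in the 3′UTR.

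PKM has a pair of mutually exclusive exons that distinguish the PKM1 and PKM2 isoforms, and the miR-342-5p mimic had a peak in each. Both exons are 167 nt long, and none of the 7 coding transcripts in the annotation contained both. The peak chr15:72494795-72494983, with a score of 346, covered the whole exon of the MANE Select transcript, the reference isoform, at chr15:72494795-72494961. The peak chr15:72495432-72495513, with a score of 53, lay within the alternative exon at chr15:72495363-72495529. The first was among the top 0.898% of the list, whereas 16.1% of the list reached the second. Neither exon had a miR-342-3p peak. The amount of each isoform was not measured in the lists.

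The other lower enzymes had 1 or 2 peaks each, and ENO2 alone among them was bound with both mimics. PGK1, the first enzyme of the pathway to yield ATP, had miR-342-3p peaks with scores of 183 in exon 9 and 132 in exon 8. TPI1, which interconverts the trioses, had a miR-342-3p peak with a score of 86. PGAM1, the phosphoglycerate mutase, had a miR-342-5p peak with a score of 93. ENO1, the main enolase, had a miR-342-5p peak with a score of 91 in the 5′UTR, while the neuronal form ENO2 had a miR-342-3p score of 11 and a miR-342-5p score of 23.

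**Figure D2:**
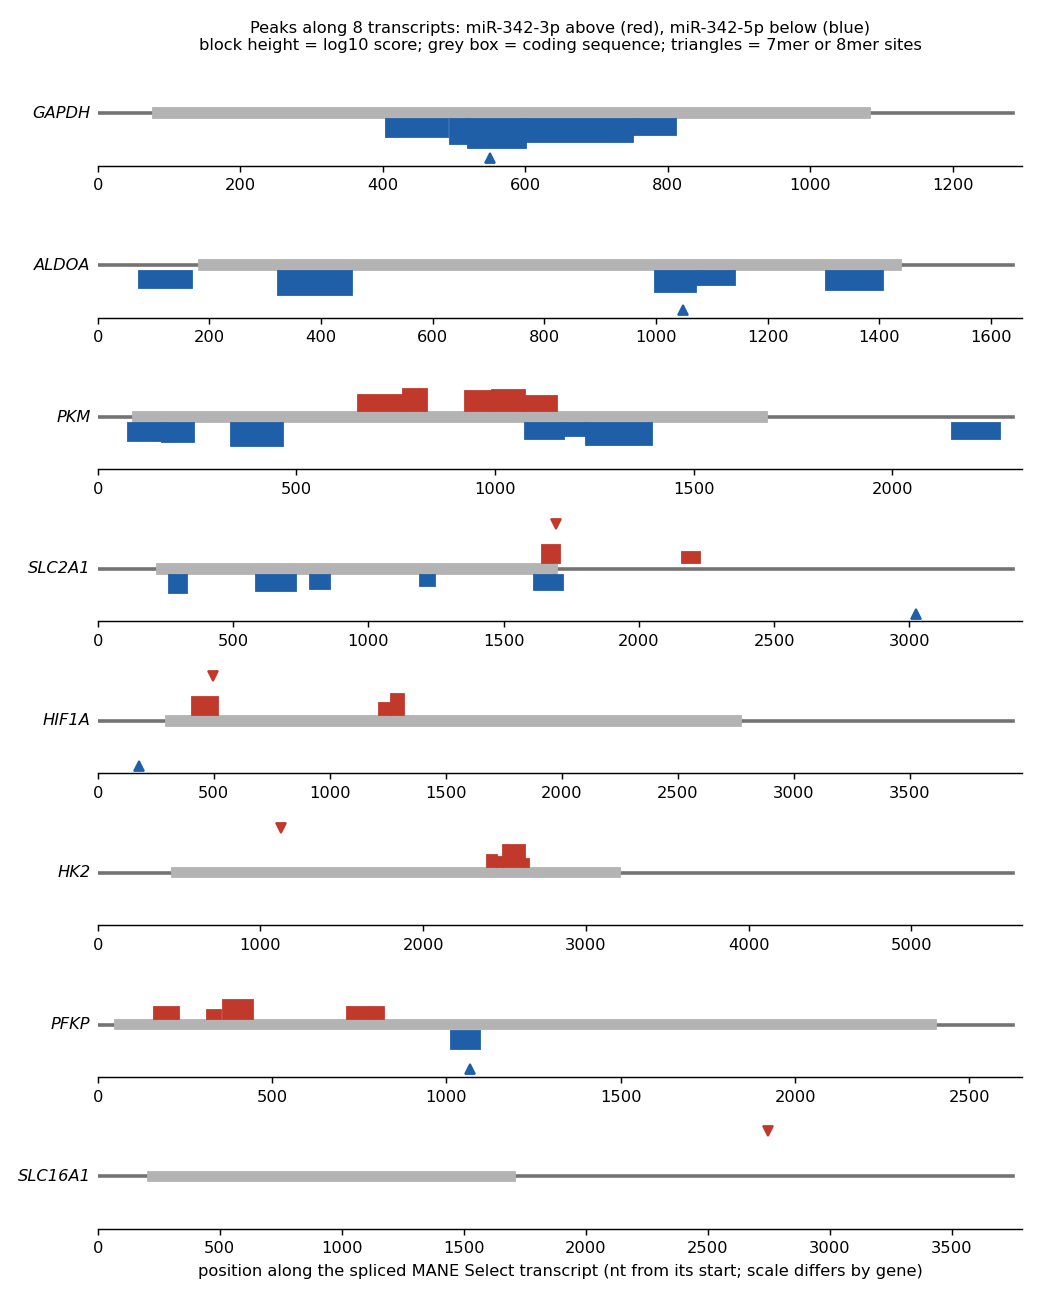
Peaks along the spliced MANE Select transcripts of 8 genes (x axis in nt from the transcript start, scale differing by gene), with miR-342-3p blocks above the line, miR-342-5p blocks below it, block height as log10 score, coding sequence as a grey box and triangles at 7mer and 8mer sites. The GAPDH peaks surround one site in the coding sequence, PKM holds peaks of both mimics and no site (its peak in the alternative exon is off this transcript), and SLC16A1 holds a site and no peak.

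At the branch point of pyruvate, LDHB, which encodes the heart-type lactate dehydrogenase subunit, had a miR-342-3p peak with a score of 153 at chr12:21794886-21794947 in exon 5. LDHA, which encodes the subunit that favours lactate formation, had no peak of either mimic and no 7mer or 8mer site in its MANE Select transcript. The pyruvate dehydrogenase genes PDHA1 and PDHB and the kinase genes PDK1, PDK2 and PDK3 had no peak. In the pentose phosphate pathway, which branches off to make NADPH and ribose, TKT (transketolase) had miR-342-3p peaks with scores of 109 and 14 and a miR-342-5p peak with a score of 57. PGD, the second dehydrogenase of that pathway, had a miR-342-5p peak with a score of 12, and TALDO1, the transaldolase, had none.

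HIF1A, the oxygen-regulated subunit of the hypoxia factor, had 3 miR-342-3p peaks and no miR-342-5p peak. The highest, chr14:62200949-62201003, had a score of 256 in exon 8 of 15 and no site, although a 6mer lay 12.5 nt from its summit. The peak at chr14:62187179-62187290 in exon 2 had a score of 109, and its 7mer-m8 was 12 nt from the summit. The third had a score of 22 in exon 8. MYC had no peak and no site of either mimic in its transcript.

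By location, 34 of the 37 miR-342-3p peaks had their midpoint in a coding exon (91.9%, 95% Wilson interval 78.7 to 97.2), where the share of the whole list was 55.1%. The 3′UTR held 3 of them (8.11%, 2.80 to 21.3), in SLC2A1 and PFKFB4, against 34.2% of the list. For miR-342-5p, 27 of 41 peaks were in coding exons (65.9%, 50.5 to 78.4), close to the 69.6% of its list, and 7 were in 3′UTRs (17.1%), close to its 17.8%. Of the remaining miR-342-5p peaks, 3 were in 5′UTRs, of SLC2A3, ALDOA and ENO1. The 2 highest GAPDH peaks had their midpoints in introns and the 2 SLC16A3 peaks lay outside basic transcripts. In ALDOA, 3 peaks counted as 3′UTR lay in the 3′UTR of an overlapping readthrough gene and in the coding sequence of ALDOA itself. With summits placed on the MANE Select transcript of each gene, 31 miR-342-5p peaks were coding and 4 were in 3′UTRs, whereas the miR-342-3p numbers stayed at 34 and 3. The difference in location between the mimics was not tested, since the peaks have no replicate values.

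Seed sites were present near a minority of the peaks. A 7mer or 8mer lay within 50 nt of the summit in 3 of 37 miR-342-3p peaks (8.11%, 2.80 to 21.3), while 20.6% of all miR-342-3p peaks had one. It did so in 8 of 41 miR-342-5p peaks (19.5%, 10.2 to 34), while 33.0% of all miR-342-5p peaks had one, and for both mimics the share of the list lay within the interval of the 34 genes. An 8mer was held by 1 miR-342-3p peak, in PFKL, and by 2 miR-342-5p peaks, in SLC2A3 and GPI. A 6mer without a longer site was present near 1 further miR-342-3p peak, in HIF1A, and 5 further miR-342-5p peaks, in SLC2A3, HK1, ALDOA, PFKFB3 and ENO2. That of ALDOA lay 38.5 nt from the summit, in an intron of its MANE Select transcript. Neither a site nor a 6mer was present near 33 of the 37 and 28 of the 41. A site of the other mimic lay near 0 miR-342-3p peaks and near 1 miR-342-5p peak, that of SLC2A1 exon 10.

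**Figure D3:**
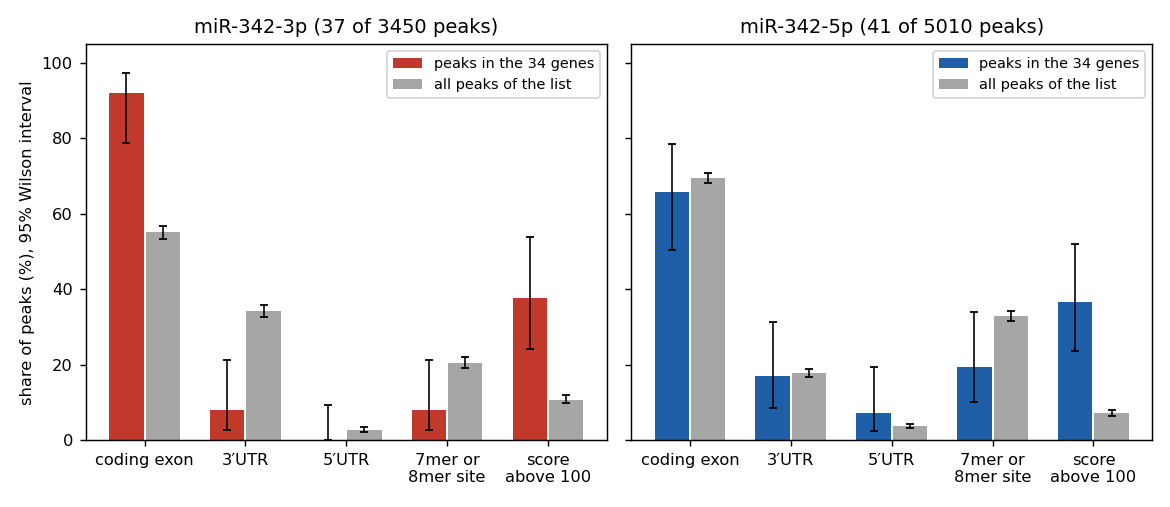
Share of peaks (%) by location, with a 7mer or 8mer site and with a score above 100, for the 34 genes (coloured bars) and for each whole list (grey bars), with 95% Wilson intervals that cover counting error only. The coding exon share of miR-342-3p is 91.9% in these genes and 55.1% in the list, while that of miR-342-5p is 65.9% and 69.6%.

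Some peaks without a site held a run of pairing shifted by 1 or 2 bases from the seed. Their sequences are shown with the paired run in capitals because they include the highest peaks of HK2 and HIF1A. These runs were looked for after the values were seen.
HK2, score 254, chr2:75113680-75113709, plus strand: aggggcggaugUGUGUGAacauggaauggg
HIF1A, score 256, chr14:62200973-62201002, plus strand: agugcauuguaUGUGUGAauuacguuguga
PFKP, score 123, chr10:3143645-3143674, plus strand: gcaucaccaacCUGUGUGugaucggcgggg
ALDOC, score 10, chr17:26901790-26901819, minus strand: ugccaaguggcgCUGUGUGcugaaaaucag
ENO1, score 91, chr1:8938666-8938695, minus strand: cucggugucugcAGCACCCuccgcuuccuc
The runs pair miR-342-3p bases 3 to 9 in HK2 and HIF1A and bases 4 to 10 in PFKP and ALDOC, and miR-342-5p bases 3 to 9 in ENO1. Such a run of at least 7 bases from miRNA base 3 or 4 was present near 4 of the 34 miR-342-3p peaks without a site (11.8%), while 18.0% of all such peaks of the list had one, and near 1 of the 33 miR-342-5p peaks without a site (3.03%), while 2.50% of the list had one. Runs of 7 bases at other miRNA positions were also present near peaks without a site. With miR-342-5p, the PKM peak with a score of 128 paired bases 12 to 18. The ALDOA peak with a score of 124 and the SLC2A3 peak with a score of 29 paired bases 1 to 7. The ALDOA run lay in an intron of its MANE Select transcript. With miR-342-3p, the HK1 peak with a score of 11 paired bases 16 to 22. The shares of the whole lists with such runs are not given here. In the PKM peak with a miR-342-3p score of 356 the longest run was 4 bases, and in the PKM peak with a miR-342-5p score of 385 it was 5. Over the miR-342-3p peaks without a site, the median longest run was 5 nt in these genes and 6 nt in the list. With miR-342-5p it was 6 nt and 5 nt.

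The transcripts were also read in the opposite direction, from every site to the peaks. The MANE Select transcripts of the 34 genes held 14 miR-342-3p sites in 13 genes and 14 miR-342-5p sites in 13 genes. A peak of the same mimic covered 3 of the 14 miR-342-3p sites (21.4%, 7.57 to 47.6), compared with 5.79% of 10699 sites over all MANE Select transcripts. It covered 6 of the 14 miR-342-5p sites (42.9%, 21.4 to 67.4), compared with 11.3% of 12581 sites. The transcripts compared were not matched for mRNA level. In coding exons, 3 of 9 miR-342-3p sites were covered (interval 12.1 to 64.6%), against 7.18% over all transcripts. For miR-342-5p, 5 of 8 were covered (interval 30.6 to 86.3%), against 15.7%. In 3′UTRs, 0 of 5 miR-342-3p sites were covered (interval 0 to 43.4%), against 4.77% over all transcripts, and 1 of 5 miR-342-5p sites, against 6.39%, so that these numbers do not set the 3′UTRs of the 34 genes apart. Conversely, no site of the binding mimic was present anywhere in the transcript for 11 of the 16 genes bound with miR-342-3p, and for 7 of the 16 bound with miR-342-5p. SLC16A3 is among these 7, although its 2 miR-342-5p peaks lay outside the transcript and each had a site there.

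Of the miR-342-3p 8mers, 3 had no peak, and they are shown because the 8mer is the strongest class of site.
SLC16A1 3′UTR, chr1:113455461-113455490, minus strand: cuuagugcuauGUGUGAGAuaugugugugu
PFKFB2 3′UTR, chr1:207248257-207248286, plus strand: caccaccaccaGUGUGAGAaugagauaugg
GPI coding exon, chr19:34884894-34884923, plus strand: aacugcuuuggGUGUGAGAcacacgccaug
SLC16A1 and PFKFB2 had no peak at all, while GPI was bound in exon 3 with miR-342-3p and at its own miR-342-5p 8mer. The remaining miR-342-3p sites without a peak were 7mer-A1 sites in PGD, PFKFB2, HK2, PGAM1, PDHA1, PDK1, PDK2 and PDK3. Among the genes without any peak, LDHA, MYC, PDHB and TALDO1 had no site of either mimic.

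**Figure D4:**
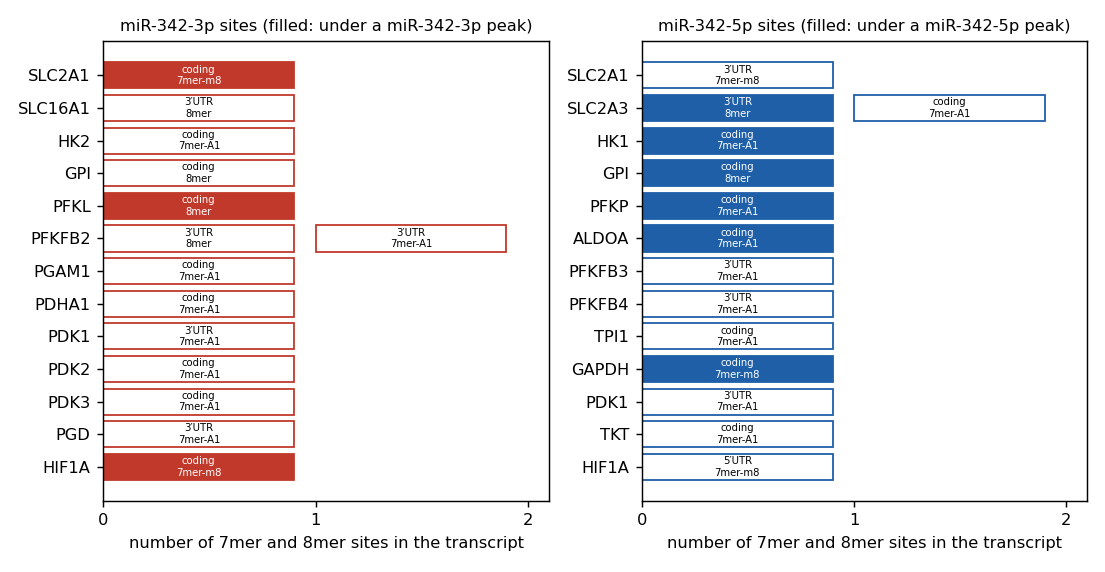
Each 7mer or 8mer site in the MANE Select transcripts of the 34 genes, drawn as a block with its region and type, filled where a peak of the same mimic covered it (x axis, number of sites per gene). Of the 14 sites of each mimic, 3 of miR-342-3p and 6 of miR-342-5p were covered, and 1 of these 9 had its centre in a 3′UTR.

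Where both mimics bound a gene, they mostly did so at different places. Overlapping peaks occurred at 3 places, in SLC2A1 exon 10, HK1 exon 3 and PKM exon 8. They made up 8.11% of the miR-342-3p and 7.32% of the miR-342-5p peaks of the 34 genes, and overlaps made up 2.20% and 1.42% of the whole lists. In HK1 the overlapping peaks scored 11 with the miR-342-3p mimic and 20 with miR-342-5p. The miR-342-5p peak held a 7mer-A1 of its mimic, which lay outside the miR-342-3p peak. In PKM the overlapping peaks had scores of 50 and 68, without a site of either mimic. Both lists were called over the same control libraries, so the peaks at these 3 places are not independent. In SLC16A3, GPI, PFKP, ENO2 and TKT the peaks of the 2 mimics did not overlap.

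A wider list of 85 genes of glucose, glycogen and lactate metabolism and its regulators was read in the same way. Peaks of miR-342-3p were present in 15 of them (17.6%, 11 to 27.1) and of miR-342-5p in 19 (22.4%, 14.8 to 32.3), while the share of all protein-coding genes was 11.8% for each. That share lay within the miR-342-3p interval, so the wider list is not set apart for this mimic. BSG, which encodes basigin, the chaperone of the MCT1 and MCT4 lactate transporters, had 6 miR-342-5p peaks with a highest score of 494. In glycogen breakdown, the phosphorylase gene PYGB had a highest score of 306 with the miR-342-3p mimic and 217 with miR-342-5p, and PYGL had 38 and 158. Among regulators of hypoxia signalling, ARNT, the partner of HIF1A, had a miR-342-3p score of 98, HIF1AN had 51, EGLN1 had 34 and EPAS1 had 16, and none of these 4 had a miR-342-5p peak or a site. TXNIP, a brake on glucose uptake, had a miR-342-3p score of 68. In the pentose phosphate pathway, the lactonase gene PGLS had a miR-342-5p score of 69.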

How the data were processed

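Ago-HITS-CLIP libraries of 231HM cells were made in 3 groups of 3. As given in the submitters' processing notes and the paper's methods, the authors trimmed reads with cutadapt 1.13, used UMI-tools, mapped to hg19 with TopHat2 2.0.13 and called peaks with MACS2 2.1.1.20160309 for each miR-342 mimic over the control. They deposited 2 peak lists with a score for each peak. Depth per library is unknown, and no replicate error could be computed. Gene bodies, exons and MANE Select transcripts came from GENCODE release 44 mapped to GRCh37 (basic transcripts). The location of a peak is that of its midpoint, with 3′UTR placed before coding exon. A near-copy is a match elsewhere in the genome of at least 55 of 61 bases around a summit. The members, lists and rules were chosen with earlier results of these data known. All 34 genes are named, those with a peak with at least the 5 highest scores per mimic, and further genes only where they have a peak. No test was run, since the lists hold no replicates, and intervals cover counting error only. The site search recovered 1000 of 1000 sites planted in simulated sequence for each mimic. The location search returned 680 of 680 coding positions that were drawn from the same annotation. These are checks of the code and do not measure how accurate the calls on the data are. Alternatives were stricter scores, other location rules, site windows and types, the highest peak of each gene, and leaving out GAPDH. The site window and near-copy query along the spliced transcript and the MANE Select location were added after seeing the data. The software was BLAST+ 2.17.0, samtools 1.23.1, pysam 0.24.0, scipy 1.17.1, pandas 2.3.3, numpy 2.4.6, matplotlib 3.10.9 and Python 3.11.15. RNA-seq and proteomic values were not used here.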

Additional observations from a re-analysis of the deposited data

How the results depend on the processing

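No paired analysis was possible because the lists merge the replicates and hold no value per library. Of 56 alternative values, 47 stayed within 1.5 times the count or within the interval of the share, and 9 moved further. With scores above 50, 18 miR-342-3p and 27 miR-342-5p peaks remained, and with scores above 100, 14 and 15 peaks remained in 10 and 7 of the 34 genes. Taking the highest peak of each gene, 100% of miR-342-3p peaks were in coding exons. Counting 8mers alone, 2.70% of miR-342-3p and 4.88% of miR-342-5p peaks had a site. Within the interval, the share with a site was 12.5% and 31.2% with the highest peak of each gene, and 31.7% for miR-342-5p with 6mers counted. Stricter scores and 8mers alone keep fewer peaks or sites by construction. With location taken at the summit on the MANE Select transcript, the coding share of miR-342-5p was 75.6%, and with the window along the spliced transcript its site share was 21.1%, or 8 of the 38 peaks on the transcripts, where 2 SLC16A3 peaks with a site dropped out and 2 peaks, in GAPDH and SLC2A3, gained one. The depth of the libraries and the scaling behind the scores are unknown, so peaks missing from a list cannot be read as absent binding.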

Other observations

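Many glycolytic genes have processed pseudogenes, whose sequence can take or lose reads. Genomic windows of 61 nt around the summit had a near-copy for 10 of 37 miR-342-3p peaks and 14 of 41 miR-342-5p peaks. Windows that run into an intron cannot match intronless copies, and 15 windows of each mimic left the exons of the MANE Select transcript. Along the spliced transcript, 12 of 37 miR-342-3p peaks had a near-copy, with at most 2 copies each, as did 18 of the 38 miR-342-5p peaks on the transcripts, with at most 24. None of the near-copies held a peak. The annotation named 113 pseudogenes after 16 of the 34 genes, and these held none of the miR-342-3p peaks (0) and 1 peak of miR-342-5p, in GAPDHP33, with a score of 12 and no site. How reads that fit several places were treated is not given in the sources used here.

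The miR-342-3p peaks of the 34 genes had a median GC content of 56.1%, compared with 50.8% over the list, and the miR-342-5p peaks had 59.0%, compared with 59.8%. The longest run of strictly alternating G and U within 50 nt of a miR-342-3p summit was 8 nt in these genes, while it reached 73 nt in the list.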
